A study of Homo sapiens with 36 samples.

Results

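The regions described here are the places in the genome where every tagged hypoxia-inducible factor (HIF) library of the series had a peak and no untagged library did. They were chosen by the peak calls alone. Overlapping peaks on chromosomes 1 to 22, X and Y from the 18 anti-V5 peak lists were merged into 61215 regions, and 1201 of these were overlapped by a peak in all 15 lists of the 5 tagged lines and in none of the 3 wild-type lists. They are called core regions below. Binding was mapped by Cut&Run, in which an antibody tethers a nuclease to chromatin and the released DNA is sequenced, in 786-O cells, a clear cell renal carcinoma line that is VHL-deficient and lacks functional HIF-1α, so that endogenous HIF-2α is stable in every group, the wild type (WT) included. All tagged proteins carried V5 and HaloTag at the amino terminus. The HIF-2α KIN line was 1 clone (A31) with the tag knocked in at both copies of the HIF-2α gene. The other 4 tagged lines expressed their protein weakly from a transgene with an L30 promoter, on top of the untagged endogenous HIF-2α. These were HIF-2α, HIF-1α, the swap HIF-2α/1α (residues 1 to 365 of HIF-2α followed by residues 364 to 826 of HIF-1α) and the swap HIF-1α/2α (residues 1 to 363 of HIF-1α followed by residues 366 to 870 of HIF-2α). Each line had 3 anti-V5 libraries, and its peaks were called with a matched IgG library as the control, so the 18 IgG libraries of the 36 samples enter through the calls and through the local background that each fold enrichment divides by.

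HIFs are heterodimers of an oxygen-regulated α subunit and the constant partner HIF-1β. When oxygen is plentiful, prolyl hydroxylases mark the α subunit for destruction by VHL, and when oxygen is low or VHL is lost the dimer binds the hypoxia response element (HRE), whose core letters are ACGTG or GCGTG. The amino-terminal part of the α subunit holds the DNA-binding and dimerization domains (abbreviated DBD), and the long carboxy-terminal part is largely an intrinsically disordered region (IDR) with the transactivation domains. HIF-1α is best known for driving glycolysis, and HIF-2α for growth and vascular genes in renal carcinoma. The 4 lines with a transgene therefore form a square in which each DBD occurs with each IDR.

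Some core regions are printed first because the results below turn on them. Each sequence is 61 bases of the + strand of hg38 around the HRE core closest to the region's summit, or around the summit itself where no HRE core lay within 150 bp. Capitals mark the HRE core on either strand. A region is named by the protein-coding gene with the closest transcription start site (TSS), which is a label and not a shown target. The first set is from the most enriched core regions, the second from regions that differed with the IDR, the third from regions that differed with the DBD, the fourth from regions that differed between endogenous and exogenous HIF-2α, and the last is the region with the most HRE cores within 50 bp of its summit.
BASP1, chr5:17158112-17158172: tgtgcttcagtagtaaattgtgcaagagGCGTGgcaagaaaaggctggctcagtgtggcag
SLC2A3, chr12:7970798-7970858: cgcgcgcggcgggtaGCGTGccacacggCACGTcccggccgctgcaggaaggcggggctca
GPI, chr19:34359430-34359490: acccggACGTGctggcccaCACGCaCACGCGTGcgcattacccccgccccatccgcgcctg
MRPS18A, chr6:43668264-43668324: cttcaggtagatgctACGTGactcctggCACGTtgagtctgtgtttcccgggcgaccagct
KLF6 (IDR), chr10:4242617-4242677: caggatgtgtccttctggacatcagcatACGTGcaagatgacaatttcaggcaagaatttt
EGLN3 (IDR), chr14:34013572-34013632: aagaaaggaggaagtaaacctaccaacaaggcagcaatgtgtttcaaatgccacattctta
CITED2 (IDR), chr6:139457785-139457845: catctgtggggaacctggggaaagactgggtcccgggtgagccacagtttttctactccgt
DHRS3 (IDR), chr1:12596109-12596169: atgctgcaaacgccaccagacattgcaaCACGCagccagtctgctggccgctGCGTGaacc
OPA3 (IDR), chr19:45585043-45585103: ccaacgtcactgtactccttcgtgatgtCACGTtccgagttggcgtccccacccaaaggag
MEAK7 (DBD), chr16:84501300-84501360: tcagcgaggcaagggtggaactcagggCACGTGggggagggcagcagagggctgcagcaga
NR3C1 (DBD), chr5:143217303-143217363: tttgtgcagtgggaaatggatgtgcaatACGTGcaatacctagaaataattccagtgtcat
GTF2IRD1 (DBD), chr7:74429255-74429315: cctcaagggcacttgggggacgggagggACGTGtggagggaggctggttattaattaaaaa
LMF1 (DBD), chr16:952042-952102: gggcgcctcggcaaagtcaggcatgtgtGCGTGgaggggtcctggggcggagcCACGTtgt
BACH1 (endogenous), chr21:29259158-29259218: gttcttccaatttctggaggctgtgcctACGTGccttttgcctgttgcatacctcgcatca
ANXA4 (endogenous), chr2:69734205-69734265: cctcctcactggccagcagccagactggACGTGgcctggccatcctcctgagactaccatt
PFKFB3 (endogenous), chr10:6201835-6201895: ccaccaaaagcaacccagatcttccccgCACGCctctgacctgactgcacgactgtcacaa
IL17B (most HRE cores), chr5:149392922-149392982: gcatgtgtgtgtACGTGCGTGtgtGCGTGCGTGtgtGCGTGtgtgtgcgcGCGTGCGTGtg

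Core regions were among the more enriched peaks of each list, and were a small part of most lists. They made up 6.27% of the peaks of HIF-2α replicate 2 and 32.1% of the much shorter list of HIF-2α KIN replicate 1, which held 3984 peaks. Fold enrichment is the fragments at a peak's summit over the local background, as deposited. Its median over the core regions was 9.34, 18.2 and 13.7 in the 3 HIF-2α KIN libraries, 15.7, 34.4 and 13.2 in HIF-2α, and 17.0, 27.4 and 20.7 in HIF-1α. The swapped proteins had 27.5, 35.7 and 22.1 (HIF-2α/1α) and 19.6, 29.4 and 19.2 (HIF-1α/2α). The other peaks of the same lists had medians of 5.66 to 7.86, below the core median in every library, as the rule for a call in every list would bring about. Replicate 2 was the highest of each line, and the lines overlapped. The median core region held 30 to 275 fragments at its summit, which sets the precision of a single value. The difference between lines with the HIF-2α IDR and lines with the HIF-1α IDR in the library median (log2) was -0.24 (exact permutation test over 12 libraries, two-sided, p = 0.405, adjusted p = 0.608), between the DBDs it was 0.09 (p = 0.725, adjusted p = 0.725, same exact test), and between HIF-2α KIN and HIF-2α it was -0.53 (exact p = 0.5, adjusted p = 0.667, where 3 against 3 cannot go below 0.1).

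**Figure D1:**
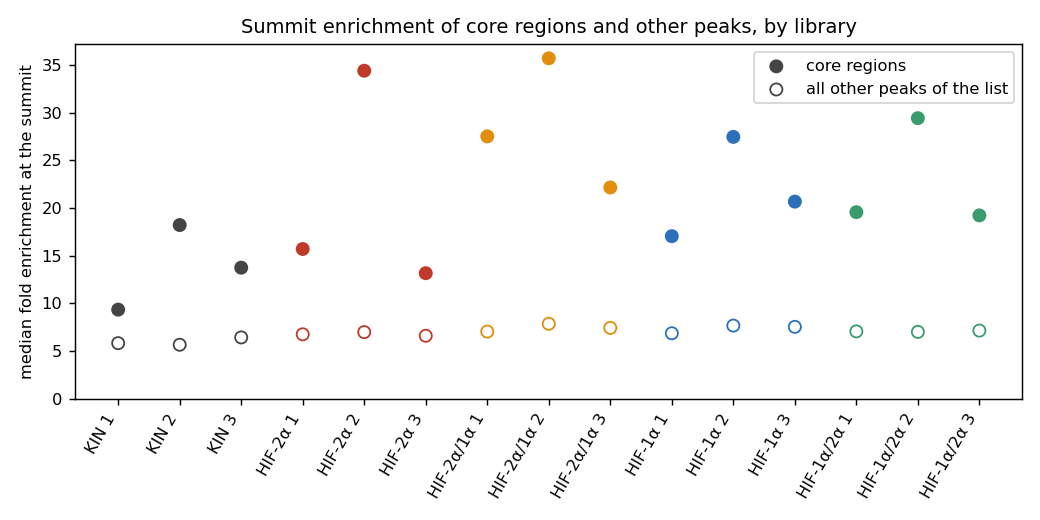
Median fold enrichment at the summit (y axis) in each of the 15 tagged libraries (x axis), with filled points for the core regions and open points for all other peaks of the same list, coloured by line. Core medians run from 9.34 in HIF-2α KIN replicate 1 to 35.7 in HIF-2α/1α replicate 2, and other peaks stay between 5.66 and 7.86.

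The edge of the rule was set by a few lists. Across core regions the weakest of the 15 calls had a -log10 q of 2.05 at the lowest, 13.6 at the median and 202 at the highest. That weakest call came from HIF-2α KIN replicate 1 in 550 regions and from HIF-2α replicate 3 in 264. Just outside the rule stood 721 regions called in 14 of the 15 lists and in no WT list, and the missing list was HIF-2α KIN replicate 1 in 410 of them and HIF-2α replicate 3 in 121. Their median fold, taken over the lists with a call, was 12.1 at the median region against 19.9 for core regions. On the other side stood 519 regions called in all 15 tagged lists and also in WT, of which 401 were called in 1 WT list, 113 in 2 and 5 in all 3. Their median fold was 17.4 and their highest WT fold 6.82 at the median region. The WT lists were uneven, with 392, 9508 and 743 peaks in replicates 1, 2 and 3. Leaving out WT replicate 2 raised the number of core regions far more than leaving out WT replicate 1 or 3. Most of the 401 regions were thus kept out by the list of WT replicate 2 alone, and not by calls that recurred between untagged libraries. Of the 100 most enriched peaks of each tagged list, core regions held 56 to 74, and regions with a WT call, these 519 included, held 20 to 41.

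Core regions were 1606 bp wide at the median (5th to 95th percentile 728 to 3525 bp), and most were far from genes' starts. The summit lay within 1 kb of a protein-coding TSS in 345 (28.7%), which are called promoter regions here, between 1 and 10 kb in 195, between 10 and 50 kb in 319 and beyond 50 kb in 342. The last 3 groups, 856 regions, are called distal. Of the 49997 regions called in 1 to 14 tagged lists and no WT list, 16.7% were promoter regions. By the annotation of GENCODE release 44, 28 core summits lay in a coding exon, 102 in a UTR, 566 elsewhere within the span of a protein-coding gene and 505 between genes. Core regions rarely lay side by side, with 55 (4.58%) having another core summit within 10 kb and 211 (17.6%) within 50 kb. The densest stretch was at ZNF395 and PNOC, with 5 core summits between chr8:28352168 and chr8:28412144. SMAD3, a transducer of TGF-β signals, and PFKP, a phosphofructokinase, each had 4 core summits within 100 kb.

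The 15 libraries placed the summits of most core regions close together. The range of the summits over libraries was 97 bp at the median region and 1122 bp at the 95th percentile, and their SD was 28.3 bp at the median (5th to 95th percentile 11.8 to 372 bp). It was smallest at the start of HILPDA, a lipid droplet protein induced by hypoxia, where 15 summits lay within 4 bp (SD 1.11 bp), followed by a region 287976 bp from C8orf90 (SD 1.88 bp) and one at LPCAT1 (SD 2.59 bp). It was largest at a wide region within the span of EGLN3 (chr14:34058288-34064934, SD 1682 bp), at CAV1 (SD 1561 bp) and at FRMD8 (SD 1410 bp), where libraries peaked at different places of the same merged region.

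Nearly every core region had an HRE core near its summit, though often not right under it. Within 150 bp of the summit, a width chosen after the positions of the motif were seen, 1068 core regions (88.9%) held ACGTG or GCGTG on either strand, against 35.5% of windows of the same length 1000 bp away. The shares were 93.9% (42.8% away) for promoter regions and 86.9% (32.6%) for distal regions. Regions called in 1 to 14 tagged lists held it in 41.9% (31.0%), with 70.6% (42.3%) of their promoter and 36.1% (28.7%) of their distal regions. The 519 regions called in all 15 tagged lists and also in WT held it in 79.2% (39.8%), and regions called in 1 list in 29.4% (28.2%). Within the narrower 50 bp, 414 core regions (34.5%) held it against 14.4% away. ACGTG alone was within 150 bp in 74.2% of core regions (15.6% away) and GCGTG in 46.6% (24.1%). The share with an HRE core rose with nearly every added list, from 29.4% at 1 list to 80.3% at 14 and 88.9% at 15. The share of promoter regions did not follow it, being 8.39% at 1 list, 37.9% at 10 and 28.7% at 15.

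**Figure D2:**
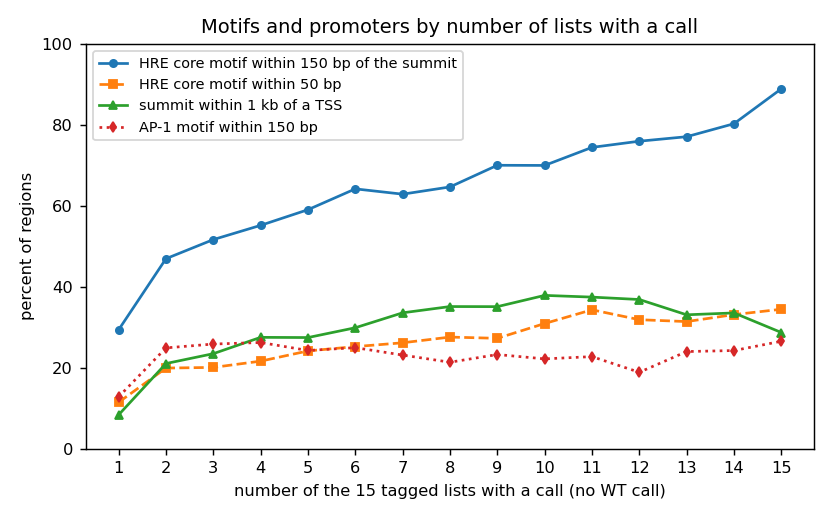
Percent of regions (y axis) with an HRE core within 150 bp or 50 bp of the summit, with a summit within 1 kb of a TSS, or with an AP-1 motif within 150 bp, by the number of tagged lists with a call and none in WT (x axis). The HRE share within 150 bp climbs from 29.4% to 88.9% at the 15 lists of the core regions, while the promoter share is highest at 10 lists (37.9%).

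The HRE core lay to the side of the summit in distal core regions. Its density there was 3.53 motifs per 1000 regions per bp within 20 bp of the summit, 7.36 at 100 to 120 bp, and 1.55 at 380 to 400 bp. Promoter core regions had a flatter course, with 8.92 within 20 bp, 10.6 at 80 to 100 bp and 2.25 at 380 to 400 bp. Regions called in 1 list had 1.56 within 20 bp. The printed KLF6 and MRPS18A sequences are examples, with their closest HRE cores 103 and 130 bp from the summit. Among core regions with an HRE core within 50 bp, the median distance to it was 27 to 34 bp over the 15 libraries. It differed by -0.58 bp between the IDRs (exact permutation test, two-sided, p = 0.67, adjusted p = 0.725) and by 0.58 bp between the DBDs (exact p = 0.7, adjusted p = 0.725).

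**Figure D3:**
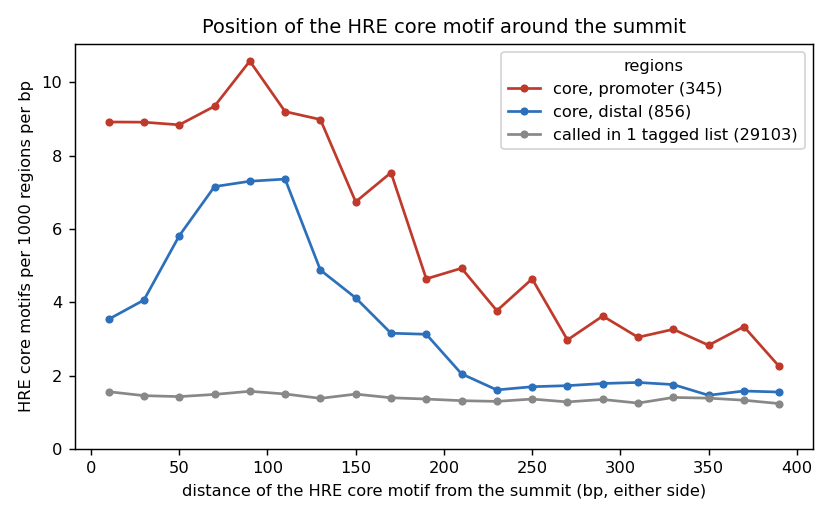
Density of the HRE core (motifs per 1000 regions per bp, y axis) by its distance from the summit on either side in bins of 20 bp (x axis), for 345 promoter core regions, 856 distal core regions and 29103 regions called in 1 tagged list. The distal curve rises from 3.53 at the summit to 7.36 at 100 to 120 bp, and the regions of 1 list stay near their value of 1.56 at the summit.

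The base before the HRE core was uneven. Within 150 bp of core summits TACGTG occurred 474 times against 38.5 in windows of the same length 1000 bp away (the mean of both sides), a ratio of 12.3. GACGTG occurred 354 times (46.5 away, ratio 7.61), CGCGTG 208 times (34.5, ratio 6.03) and TGCGTG 392 times (80, ratio 4.90). CACGTG, counted once although it reads the same on both strands, occurred 169 times (60.5, ratio 2.79), AACGTG 176 times (67.5, ratio 2.61), AGCGTG 175 times (72.5, ratio 2.41) and GGCGTG 255 times (187, ratio 1.36). TACGTG had ratios of 12.1 in promoter and 12.4 in distal regions, whereas GGCGTG had 2.14 and 0.951. The KLF6, NR3C1 and BACH1 sequences show TACGTG, and the MEAK7 sequence shows CACGTG. These are counts in regions selected for a call, with no test.

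Many core regions had several HRE cores. Within 150 bp, 133 regions had none, 445 had 1, 291 had 2, 164 had 3 and the rest more, counting both strands, so that CACGTG counts as 2. The largest number within 50 bp was 10, at IL17B, where the printed sequence shows a repeat of GCGTG. VAPB followed with 9, 17 bp before its start, and a region within the span of ZNF395 had 8, with 17 within 150 bp. Core regions without an HRE core within 100 bp included strong ones. The most enriched were at TMEM94 (rank 6 of the core regions), MRPS18A (rank 10) and the start of P4HA1 (rank 16), which encodes a collagen prolyl hydroxylase, and each had 1 or 2 between 100 and 150 bp.

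Other motifs divided promoter from distal core regions. The AP-1 site TGACTCA or TGAGTCA, bound by FOS and JUN proteins, was within 150 bp of 33.8% of distal core summits (6.07% in windows 1000 bp away) and of 8.70% of promoter ones (4.49%). Among regions called in 1 to 14 lists those shares were 20.1% (5.17%) and 5.13% (3.77%). The GC box GGGCGG, bound by SP factors, was in 66.4% of promoter core regions (19.6% away) and 14.3% of distal ones (8.94%). Among regions called in 1 to 14 lists it was in 63.7% of promoter regions (20.5%) and 7.40% of distal ones (6.37%). CCAAT was in 28.0% of all core regions and 30.3% of the windows away. GC content was 65.8% at the median promoter core region and 50.2% at the median distal one.

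Within each list, core peaks held an HRE core more often than the list's other peaks did. Within 50 bp of the summit of that library's own peak, the share was 33.6% ± 1.15 (SD, n = 15 libraries) for core peaks and 24.9% ± 1.98 for the others, a difference of 8.69 points that was positive in 15 of 15 libraries (exact sign-flip permutation test, two-sided, p = 6.1e-05, the smallest it can give, adjusted p = 0.000732). Within 150 bp the shares were 83.6% and 58.4%. For promoters the difference was 3.37 points, positive in 12 of 15 libraries (exact p = 0.00500, adjusted p = 0.0120), and it turned to -3.80 points (adjusted p = 0.0233, exact test) when every list was shortened to its 3984 most enriched peaks. For AP-1 within 50 bp it was 0.70 points, positive in 12 of 15 (exact p = 0.00336, adjusted p = 0.0120), and 0.15 points (adjusted p = 0.717, exact test) with only peaks of -log10 q of at least 5. The libraries share the core regions, so these p-values cover only how alike the lists are.

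Strength ranked the core regions in a partly similar way in all lines. Between libraries of 1 line the correlation of log2 fold across core regions was 0.51 to 0.68, and between lines it was lowest for HIF-2α against HIF-1α (median of 9 pairs 0.41) and for HIF-2α KIN against HIF-1α (0.41). On the fragments at the summit it was 0.88 to 0.93 within a line. Between lines the medians of 9 pairs were lower there, from 0.68 (HIF-2α KIN against HIF-1α) to 0.84 (HIF-2α/1α against HIF-1α). These are correlations across regions that share library and depth, given as a description. The regions were ranked and split into 4 equal groups by mean enrichment over the 15 libraries, each library centred on its median. From the strongest to the weakest group, the share with an HRE core within 150 bp was 94.0%, 90.0%, 89.0% and 82.7%, the promoter share was 22.7%, 24.7%, 32.3% and 35.2%, and the median SD of the summit was 21.4, 24.8, 30.5 and 43.1 bp. Within 50 bp the share with an HRE core ran the other way, at 32.0%, 34.3%, 33.0% and 38.5%. In each of the 15 libraries, core regions with an HRE core within 150 bp were more enriched than those without, by 0.22 to 0.46 on the log2 scale. With the 50 bp window this difference was -0.27 to 0.06 and was above 0 in 3 of the 15 libraries.

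The strongest core region lay 58633 bp upstream of the TSS of BASP1 (chr5:17156615-17159206), with a fold enrichment of 30.1 in the lowest library, 89.1 at the median and 181 in the highest. Next came SLC45A1 (34.9, 70.6 and 205 in the same order, chr1:8200740-8204087), KCMF1, which encodes a ubiquitin ligase (21.2, 81.2 and 239), and SLC2A3, the glucose transporter GLUT3 (37.7, 68.8 and 168, chr12:7969720-7971735). TGFA, which encodes a ligand of the EGF receptor, TMEM94, GPI, CFAP144, HOXB9 and MRPS18A complete the 10 strongest, with medians of 61.6 to 74.3. None of these 10 was a promoter region. The weakest core regions were at the starts of PLEC (3.38, 4.85 and 12.2), IZUMO4 (3.18, 5.61 and 9.70) and SPRED1 (3.46, 6.41 and 12.5), all promoter regions.

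Many genes of glucose use had a core region near their start. Of all 19654 protein-coding genes, 651 (3.31%) had a core summit within 10 kb of a TSS and 380 (1.93%) within 1 kb. Of 12 genes of glucose uptake and upper glycolysis, 8 had one within 10 kb. These were the hexokinase HK2, ALDOA, PFKL and PFKFB4 within 1 kb, and SLC2A1 (the glucose transporter GLUT1), GPI, PFKP and PFKFB3 between 1 and 10 kb. Of 8 genes of lower glycolysis, 6 had one within 1 kb, namely TPI1, GAPDH, PGK1, PGAM1, ENO1 and LDHA. Of 10 genes of pyruvate fate and mitophagy, 6 had one within 1 kb. These were PDK1 and PDK3, kinases that hold pyruvate back from mitochondria, the mitophagy receptors BNIP3 and BNIP3L, the mitochondrial protease LONP1 and the MYC antagonist MXI1.

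Fold enrichment at these metabolic regions spanned the libraries widely. At GAPDH (chr12:6532064-6535912, summit 875 bp upstream) the lowest library had 21.7, the median 56.5 and the highest 131. ENO1, enolase, had 17.3, 47.3 and 140 (542 bp upstream), TPI1 14.1, 43.5 and 84.8, and PGAM1 11.6, 49.0 and 88.6. PGAM1 had no HRE core within 150 bp of its summit, whereas ENO1 had 4. PDK1 had 8.58, 39.3 and 81.2, and HK2 11.6, 31.2 and 82.9. None of these 6 regions passed the limma test of a contrast of lines on log2 fold described below. On fragments over depth, which vary less between replicates, ENO1 and HK2 were lower with the HIF-2α DBD than with the HIF-1α DBD by -1.29 and -1.01 on the log2 scale (limma adjusted p = 3.66e-07 and 2.67e-05), and GAPDH and TPI1 were higher with the HIF-2α IDR by 0.60 and 0.87 (adjusted p = 0.000109 and 0.000659). PGAM1 and PDK1 passed neither contrast there. Of all 1720 regions tested on that scale, 13.2% were lower and 12.8% higher with the HIF-2α DBD. With the HIF-2α IDR 26.8% were higher and 18.1% lower, so such calls were common.

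Vascular and matrix genes had core regions in smaller shares, and of the oxygen-sensing genes 1 did. Of 14 angiogenic and vasoactive genes 5 had a core summit within 10 kb. Among them, VEGFA, the vascular endothelial growth factor, had one 387 bp upstream (lowest 15.9, median 41.3, highest 133), ADM had one within 1 kb, and PDGFB and ANGPTL4 between 1 and 10 kb. Of 11 collagen-modifying enzymes 4 had one, namely P4HA1 (34.4, 61.8 and 142), PLOD2 (16.3, 56.5 and 142), PLOD3 and PLOD1. Of 16 JmjC demethylases and TET enzymes, which need oxygen as the HIF prolyl hydroxylases do, 5 had one, namely KDM2B, KDM3A, KDM4B, KDM4C and KDM6B. Of 11 growth and stress genes 4 had one, namely NDRG1, ANKRD37, ERO1A and TRIB3. Of 13 oxygen-sensing and feedback genes only BHLHE41, a transcriptional repressor, had one within 10 kb. A further 2 had within 10 kb a region called in all 15 tagged lists that a WT call kept out of the core, as did 192 of all 19654 genes, and 12 had a region called in some tagged list and in no WT list that close, as did 12025 of all 19654 genes. EGLN3 and CITED2 of that list had core regions farther off.

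In each of the remaining lists at most 1 gene had a core summit within 10 kb, against 3.31% of all genes, a share that gives less than 1 gene in lists of this size. Of 12 growth genes linked to HIF-2α in renal carcinoma 1 (8.33%) had one, the amino acid transporter SLC7A5, and the strong TGFA region lay 43177 bp from its TSS. Of 10 iron genes 1 had one, the transferrin receptor TFRC, and of 5 pH genes none, and in both lists 1 further gene had an all-tagged region that a WT call kept out. Of 24 cytosolic ribosomal protein genes 1 (4.17%) had one (RPL3), and none of 15 kidney tubule transporters or of 18 genes of other organs did. The lists were drawn up with earlier results of these data known, and the counts are descriptions.

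The IDR went with where enrichment lay among the core regions. In lines with the HIF-2α IDR promoter core regions were less enriched than distal ones, and in lines with the HIF-1α IDR the classes were about level. The difference of median log2 fold, promoter minus distal, was -0.28, -0.54 and -0.33 in the HIF-2α libraries and -0.30, -0.39 and -0.33 in HIF-1α/2α. It was 0.11, 0.03 and -0.02 in HIF-1α and 0.09, -0.21 and -0.06 in HIF-2α/1α. The 6 libraries with the HIF-2α IDR (mean -0.36 ± 0.10, SD) did not overlap the 6 with the HIF-1α IDR (mean -0.01 ± 0.12), the closest values being -0.28 and -0.21. The difference was -0.35 (exact permutation test within DBD, two-sided, p = 0.005, the smallest it can give, adjusted over 12 tests p = 0.0120). With labels also exchanged only within a replicate number, where p cannot go below 0.03125, the exact adjusted p was 0.0625. Between the DBDs the difference was -0.07 (exact p = 0.285, adjusted p = 0.489). HIF-2α KIN, which shares the HIF-2α IDR, had -0.22, -0.32 and -0.34. Core regions must be called in all lines, so a promoter or distal region with a large difference between lines can have dropped out.

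**Figure D4:**
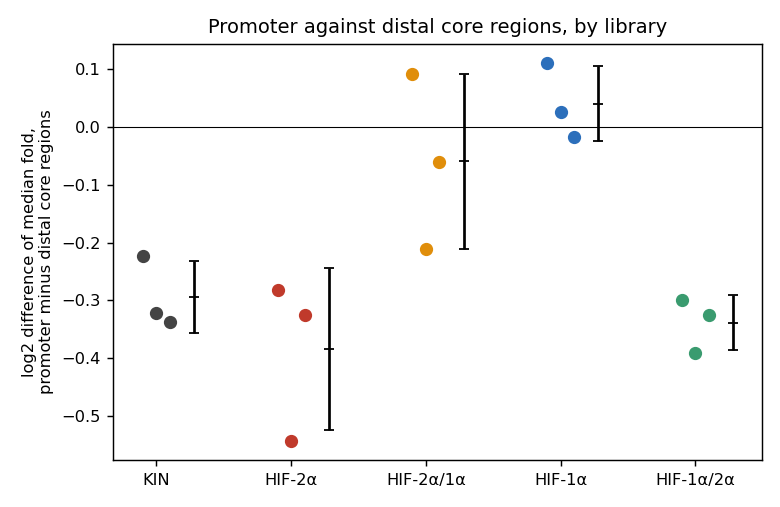
Difference of the median log2 fold enrichment between promoter and distal core regions (y axis) in each library, by line (x axis), with the mean and SD of the 3 libraries beside them in black. All HIF-2α KIN, HIF-2α and HIF-1α/2α libraries lie at or below -0.22, and HIF-1α and HIF-2α/1α libraries lie between -0.21 and 0.11.

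Having an HRE core within 50 bp of the summit gave smaller differences, which depended on the window. The median log2 fold of core regions with one minus those without was -0.27 to -0.06 in the 6 transgene libraries with the HIF-2α IDR and -0.11 to 0.06 in the 6 with the HIF-1α IDR. It was lower with the HIF-2α IDR than with the HIF-1α IDR by -0.13 (exact permutation test, p = 0.005, adjusted p = 0.0120) and lower with the HIF-2α DBD by -0.10 (exact p = 0.02, adjusted p = 0.04). The adjustment took in the comparisons of core with other peaks, whose small p-values lower the adjusted p of the rest. With labels also exchanged only within a replicate number, both had an exact adjusted p of 0.0625. The DBD call was lost without any 1 of the 3 HIF-2α or 3 HIF-1α libraries, with adjusted p of 0.09 to 0.19 by the exact test. Within 100 bp these were -0.07 (exact p = 0.085, adjusted p = 0.204) and -0.02 (adjusted p = 0.791, exact test). Promoter core regions had an HRE core within 50 bp in 49.9% and distal ones in 28.3%, and their part in these differences was not tested.

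At single regions, 25 of the 1201 core regions differed with the IDR. The test was limma on log2 fold over the 1720 regions called in all tagged lists, with adjusted p under 0.05, and 17 core regions were higher and 8 lower with the HIF-2α IDR. Over all 1720 regions, the core regions included, 22 (1.28%) were higher and 10 (0.581%) lower. Of the 17 higher regions 16 were distal, and of the 8 lower ones 4 were. The number of calls ranged from 6 to 47 when single libraries were left out, with 6 without HIF-1α/2α replicate 1, 10 without HIF-2α/1α replicate 1, 12 without HIF-2α replicate 2, 14 without HIF-1α/2α replicate 3, 15 without HIF-1α replicate 1 and 47 without HIF-2α/1α replicate 2. It was 61 with the replicate number as a block (36 higher, 25 lower, against 44 and 29 of all 1720). On the fragments at the summit over the library's depth, whose replicate SD was 0.27 against 0.57 for log2 fold, 322 core regions were higher and 219 lower (26.8% and 18.1% of all 1720), 24 of the 25 among them with the same sign. There, 289 distal and 33 promoter regions were higher, and 108 distal and 111 promoter regions were lower. The median IDR difference in log2 fold was -0.24 over promoter and 0.13 over distal core regions, and it was 0.03 over all of them.

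The largest IDR difference was at a region within the span of EGLN3 (chr14:34012448-34014369, 62521 bp upstream of the TSS). EGLN3 encodes the prolyl hydroxylase PHD3, which marks HIF-α for destruction. Fold enrichment there was 48.2, 65.9 and 23.4 in HIF-2α and 38.6, 58.0 and 35.2 in HIF-1α/2α, against 7.19, 14.4 and 6.94 in HIF-1α and 17.3, 14.2 and 11.3 in HIF-2α/1α, with no overlap between the IDRs in these 4 lines. The log2 difference was 2.17 ± 0.33 (SE, limma adjusted p = 1.1e-06). HIF-2α KIN, which also has the HIF-2α IDR but is not in this contrast, had 6.53, 11.0 and 7.96. No HRE core lay within 150 bp of its summit, and the closest was 151 bp away.

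A second region, 457469 bp upstream of KLF6, a zinc-finger transcription factor gene (chr10:4240767-4244208), had 31.5, 61.6 and 26.1 in HIF-2α and 33.3, 37.9 and 32.4 in HIF-1α/2α. In HIF-1α it had 6.22, 5.38 and 13.2 and in HIF-2α/1α 17.8, 17.9 and 6.77. In these 4 lines all libraries with the HIF-2α IDR were above all with the HIF-1α IDR, by 2.10 ± 0.34 (SE, log2, limma adjusted p = 3.9e-06), or by 1.18 on fragments over depth (limma adjusted p = 7.63e-06). HIF-2α KIN had 6.08, 33.3 and 16.7, across the range of both. CITED2, whose product competes with HIF-α for the coactivators CBP and p300, had a region 83167 bp upstream that was higher by 1.62 ± 0.34 (limma adjusted p = 0.00153). Regions near FOXL1, a forkhead factor gene (1.83, adjusted p = 0.000166 by limma), and STC1, which encodes the hormone stanniocalcin (1.81, adjusted p = 0.000186, but 0.74 on fragments over depth, adjusted p = 0.00191), were higher too. These 5 passed on log2 fold with any library left out, with adjusted p of at most 0.0186, unlike TPM1 (1.38, adjusted p = 0.0168, up to 0.0698 without HIF-1α replicate 1, and also lost without HIF-2α replicate 1 or HIF-1α/2α replicate 1 or 2). At CITED2, FOXL1 and STC1 the mean fold of HIF-2α KIN was 31.2, 15.0 and 5.96. Each lay between the means of HIF-1α (17.2, 16.9 and 5.94) and HIF-2α/1α (32.2, 13.7 and 9.42).

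The regions lower with the HIF-2α IDR included gene starts. KPNB1, importin β, had a region 171 bp upstream (chr17:47649081-47650878) with 14.6, 59.6 and 13.3 in HIF-1α and 40.5, 116 and 57.1 in HIF-2α/1α, against 9.35, 22.5 and 9.29 in HIF-2α and 7.54, 17.6 and 13.3 in HIF-1α/2α. The groups overlapped, and the log2 difference was -1.39 ± 0.34 (SE, limma adjusted p = 0.0156), with adjusted p of 0.0661 without HIF-1α replicate 2 and the call lost also without HIF-1α/2α replicate 1. The difference was -0.59 on fragments over depth (limma adjusted p = 0.00205). OPA3, a mitochondrial protein gene, had -1.28 (adjusted p = 0.0245 by limma, up to 0.100 without HIF-2α/1α replicate 1) and DHRS3, a retinal reductase gene, -1.31 (adjusted p = 0.0245, up to 0.0592). MBP, SET and GPRC5A had -1.22, -1.17 and -1.15 (limma adjusted p = 0.0325, 0.0448 and 0.0493). MBP did not pass on fragments over depth (-0.42, limma adjusted p = 0.0626), and GPRC5A had -0.62 there (adjusted p = 0.0220) and did not pass with quantile normalization (limma adjusted p = 0.0687). None of these 6 kept its call with every single library left out, and DHRS3 kept it in 10, OPA3 in 9, MBP in 8, SET in 6 and GPRC5A in 6 of the 15 fits. At DHRS3 the summits ranged over 2353 bp across the libraries (SD 1193 bp), so its values can come from different peaks of the merged region.

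**Figure D5:**
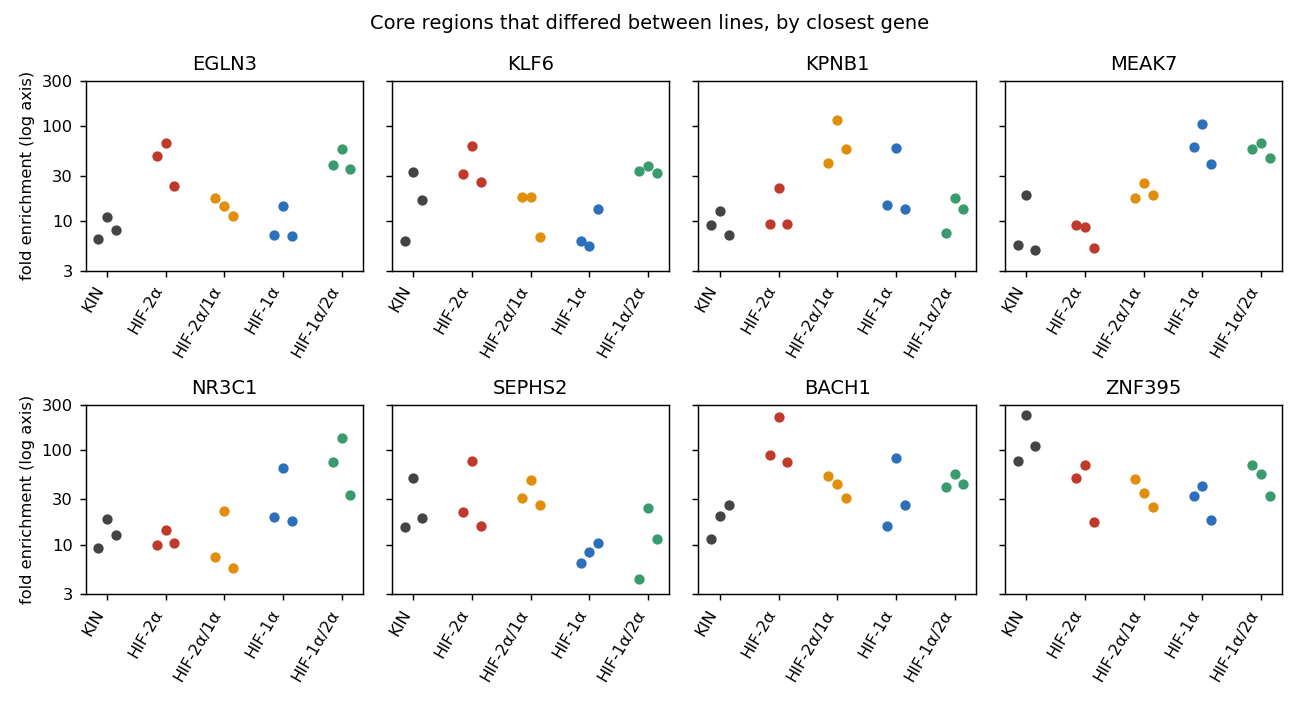
Fold enrichment (log axis) at 8 core regions in the 3 libraries of each tagged line (x axis), each point a library, titled by the closest gene. Among the transgene lines EGLN3 and KLF6 are higher with the HIF-2α IDR and KPNB1 is lower there, MEAK7 and NR3C1 are higher and SEPHS2 is lower in the lines with the HIF-1α DBD, BACH1 is lower and ZNF395 higher in HIF-2α KIN than in HIF-2α.

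With the DBD, 28 core regions differed, and those with more enrichment by the HIF-1α DBD had the larger changes. On log2 fold 12 were higher and 16 lower with the HIF-2α DBD (limma, adjusted p under 0.05), where 0.814% and 1.57% of all 1720 regions were. Of the 12 higher, 6 were promoter regions, and of the 16 lower, 5 were. Leaving out single libraries gave 21 to 35 calls. With the replicate number as a block 45 core regions passed (21 higher, 24 lower), against 24 and 38 of all 1720. On fragments over depth 162 core regions were higher and 148 lower (12.8% and 13.2% of all 1720), with 25 of the 28 among them and of the same sign. The median DBD difference over core regions was 0.06 on the log2 fold scale.

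MEAK7, which encodes a protein tied to mTOR signalling, had the largest on log2 fold. At its region (chr16:84501127-84502242, 3282 bp downstream of the TSS) fold enrichment was 60.5, 104 and 40.0 in HIF-1α and 56.9, 67.3 and 46.3 in HIF-1α/2α. It was 9.06, 8.75 and 5.20 in HIF-2α, 17.5, 25.4 and 18.6 in HIF-2α/1α and 5.60, 18.8 and 4.91 in HIF-2α KIN. No library with the HIF-2α DBD reached those with the HIF-1α DBD, and the log2 difference was -2.33 ± 0.34 (SE, limma adjusted p = 1.7e-07). Measured on fragments over depth it was -1.48, smaller than the -2.14 of PLEKHG3 and the -1.99 of NR3C1. The HRE core closest to its summit is the CACGTG printed above, 47 bp away.

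A region 183464 bp from the TSS of NR3C1, the glucocorticoid receptor gene, and within the span of ARHGAP26 (chr5:143215942-143217997) had 19.5, 64.6 and 17.8 in HIF-1α and 74.0, 133 and 33.7 in HIF-1α/2α. It had 9.98, 14.2 and 10.4 in HIF-2α and 7.51, 22.6 and 5.61 in HIF-2α/1α, and in HIF-2α KIN 9.20, 18.8 and 12.8. Of the libraries with the HIF-2α DBD, replicate 2 of HIF-2α/1α and of HIF-2α KIN reached into the range of the HIF-1α DBD. The log2 difference was -2.12 ± 0.34 (SE, limma adjusted p = 3.4e-06). PLEKHG3 (-2.01, limma adjusted p = 1.8e-05), GTF2IRD1 (-1.81, adjusted p = 0.000101), P4HB, which encodes protein disulfide isomerase and a subunit of collagen prolyl hydroxylase (-1.70, adjusted p = 0.000253), and LNPK (-1.61, adjusted p = 0.000554) were lower by limma as well. Each of these 6 regions passed with any library left out.

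Higher with the HIF-2α DBD was SEPHS2, selenophosphate synthetase, whose region had its summit in the coding exon (chr16:30445351-30446584). It had 22.4, 76.7 and 15.7 in HIF-2α and 30.8, 48.5 and 26.0 in HIF-2α/1α, against 6.42, 8.30 and 10.5 in HIF-1α and 4.30, 24.6 and 11.4 in HIF-1α/2α. Of the libraries with the HIF-1α DBD only HIF-1α/2α replicate 2 overlapped the others, and the log2 difference was 1.71 ± 0.34 (SE, limma adjusted p = 0.000253). LMF1, a lipase maturation factor gene, had 1.5 (limma adjusted p = 0.00281), and the shared start of ZNHIT1 and PLOD3 had 1.34 (adjusted p = 0.00745), both with any library left out. IGF1R (1.30), YPEL5 (1.29) and SLC26A1 (1.23) passed by limma with adjusted p of 0.0148, 0.0148 and 0.0251 and lost the call without HIF-2α replicate 2 or HIF-2α/1α replicate 2. IGF1R lost it also without HIF-1α replicate 2 or HIF-1α/2α replicate 2 or 3, YPEL5 without HIF-1α replicate 2, and SLC26A1 without HIF-1α replicate 1 or HIF-1α/2α replicate 3. IGF1R had 0.40 (limma adjusted p = 0.111) and YPEL5 0.71 (adjusted p = 0.00880) on fragments over depth.

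Whether the IDR difference itself depended on the DBD was tested as an interaction, and no core region passed (limma, 0 of 1720 regions, 0%). At an unadjusted p under 0.05 there were 67 of the 1201 core regions. A share near 0.05 is what no interaction at all would give. On fragments over depth 2 core regions passed the adjustment, 1 higher and 1 lower, and no other of the 1720 regions did. The smallest p-values were at SLC6A6, the taurine transporter gene (-2.53 ± 0.68, SE, log2, limma adjusted p = 0.475), and NDUFAF8 (2.39 ± 0.68, adjusted p = 0.475). The median standard deviation of 0.57 between replicates on this scale bounds what 3 libraries a line can show.

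Between endogenous and exogenous HIF-2α 8 core regions differed, and none of the 8 calls survived the removal of every library in turn. HIF-2α KIN was higher than HIF-2α at 5 and lower at 3 (limma on log2 fold, adjusted p under 0.05), where 0.349% and 0.174% of all 1720 regions were. The count was 0 without HIF-2α KIN replicate 2 or without HIF-2α replicate 3, 1 without HIF-2α KIN replicate 1, and 1 with quantile normalization in place of median centring. With the replicate number as a block it was 14 (10 higher, 4 lower), against 14 and 5 of all 1720. On fragments over depth 158 core regions were higher and 182 lower (14.9% and 13.9% of all 1720), the 8 among them and of the same sign. The higher ones were 48 promoter and 110 distal regions, and the lower ones 13 promoter and 169 distal regions.

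ZNF395, a zinc-finger gene, had the largest increase on log2 fold, at chr8:28364739-28372467, 1 of the 5 core regions of its cluster. Fold enrichment was 77.2, 232 and 110 in HIF-2α KIN and 51.0, 69.2 and 17.2 in HIF-2α, without overlap, and 18.2 to 69.1 in the other lines. The log2 difference was 2.19 ± 0.47 (SE, limma adjusted p = 0.00801, 0.110 with quantile normalization, 0.130 without HIF-2α KIN replicate 2). Measured on fragments over depth it was 1.38, below the 2.23 of ANXA4 and the 1.78 of PFKFB3. The shared start of ZNHIT1 and PLOD3 (2.10), CPLX4 (2.02), PFKFB3, whose product raises the glycolytic activator fructose 2,6-bisphosphate (1.93), and ANXA4, an annexin gene (1.90), were higher by limma with adjusted p of 0.00801, 0.0170, 0.0170 and 0.0176. ZNHIT1 had 0.95 and CPLX4 1.16 on fragments over depth (limma adjusted p = 0.000822 and 0.00214). PFKFB3 had 35.9, 80.7 and 48.5 in HIF-2α KIN and 18.0, 29.6 and 13.9 in HIF-2α, which did not overlap. Its summits ranged over 3452 bp across the libraries (SD 911 bp), so these values can come from different peaks of the merged region.

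BACH1, which encodes a repressor that senses heme, was the most reduced in the endogenous line on log2 fold. Its region (chr21:29257759-29259947) had 11.6, 20.0 and 26.4 in HIF-2α KIN and 88.1, 221 and 74.8 in HIF-2α, without overlap. The log2 difference was -2.11 ± 0.47 (SE, limma adjusted p = 0.00801, 0.130 without HIF-2α KIN replicate 2). The same region was higher with the HIF-2α IDR by 1.23 (limma adjusted p = 0.0277). HIF-1α/2α had 40.2, 56.3 and 43.4 there, level with HIF-2α/1α (52.6, 44.2 and 31.1) and within the range of HIF-1α (15.6, 81.6 and 26.2), so that on fold the higher values were those of HIF-2α. By fragments over depth the IDR difference was 1.74 (limma adjusted p = 7.84e-10). LPIN1, which encodes a phosphatidate phosphatase (-1.89, limma adjusted p = 0.0188), and the EGLN3 region described above (-1.82, adjusted p = 0.0248) were lower as well. LPIN1 had -2.73, EGLN3 -2.60 and BACH1 -1.75 on fragments over depth. At EGLN3 HIF-2α KIN lay within or below the range of the lines with the HIF-1α IDR. HIF-2α KIN is 1 clone and the exogenous protein sits on top of the endogenous one, so clone and expression level cannot be told apart here.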

How the data were processed

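Cut&Run DNA from 6 lines of 786-O cells was sequenced with anti-V5 or IgG, 3 replicates each. Per the submitters' processing notes and the study's methods, the authors used FastQC, aligned paired reads to hg38 with Bowtie2 2.3.4.1, made files with SAMtools 1.8, called peaks per library with MACS2 against the line's IgG with duplicates kept, and removed blacklisted regions with bedtools 2.28.0. The deposited lists give for each peak a fold enrichment, a ratio of summit fragments to local background with 1 added to both, and a -log10 p and -log10 q, which the authors' caller wrote. Every list column used was matched to a sample. The files carry no read totals, so summit fragments and the depth (0.24 to 0.62 fragments per base over the 18 lists) were solved here from the deposited fold and -log10 p. The fold divides by a background that is itself noisy, so both measures are given.

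Peaks were merged across the 18 lists, and a region's value in a library was that of its highest peak. The members and gene lists were chosen with earlier results of these data known. log2 fold was centred on each library's median and fitted with limma 3.58.1 in R 4.3.3 over the 1720 regions called in all 15 tagged lists, with Benjamini-Hochberg adjustment. Contrasts were (HIF-2α and HIF-1α/2α) minus (HIF-1α and HIF-2α/1α) for the IDR, (HIF-2α and HIF-2α/1α) minus (HIF-1α and HIF-1α/2α) for the DBD, their interaction, and HIF-2α KIN minus HIF-2α. One value per library was compared by exact permutation in 12 tests, adjusted together. These include the comparisons of core with other peaks, whose small p-values lower the adjusted p of the other tests. Nothing says that replicates came from separate cultures, so p-values measure the spread between these samples, which may be technical. Each transgene protein had its own stable line, and the tests took a line's libraries as independent. An IDR or DBD therefore cannot be told apart from other traits of its lines, such as expression level. Motifs were searched on both strands around the region's median summit, and in the same window 1000 bp to either side. Regions named were the 10 strongest and 3 weakest, up to 6 per direction and contrast by size among those passing (or 3 by p where none did), up to 4 per gene list, and 3 each for most HRE cores, smallest and largest summit spread, and no HRE core within 100 bp. TSS and exons came from GENCODE release 44. In data simulated on these 1720 regions, with independent noise in each library, an IDR difference of 1 (log2) was called in 19 of 100 regions. A difference of 2 was called in 89 of 100, and 9 of 1520 unchanged regions were called. The number of changed regions was set, and no deviation shared by replicate number was simulated. These rates therefore need not hold for the real fits.

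Alternatives were another strength measure, normalization, peak filter, list length, merging, promoter and motif definition, a replicate block, and each library left out. The 150 bp motif window and the block on fragments were added after seeing the data. Python 3.11.15, scipy 1.17.1 and pysam 0.24.0 were used. 1 gene of the angiogenic list is not reported here.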

Additional observations from a re-analysis of the deposited data

How the results depend on the processing

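The rule that chose the regions depended on list length. It kept 598 regions when each list was shortened to 3984 peaks, and 1201 to 1611 with single libraries left out, the most without HIF-2α KIN replicate 1. The next most were kept without WT replicate 2, whose list was the longest of the WT lists. The number of core regions with an IDR difference rose from 25 to 541 on fragments over depth and was 6 to 47 with libraries left out (6 without HIF-1α/2α replicate 1, 47 without HIF-2α/1α replicate 2). For the DBD it was 310 on fragments and 21 to 35 with libraries left out. For HIF-2α KIN it was 340 on fragments, 1 with quantile normalization and 0 to 9 with libraries left out. For the interaction it was 2 on fragments and 0 with any library left out. The reason for the larger counts on fragments was not tested, beside the replicate SD given above. The promoter share difference between core and other peaks was -0.0496 points with peaks of -log10 q of at least 5, -3.80 with lists of equal length and 2.83 to 3.81 with libraries left out, and the AP-1 difference was 0.15 with the stricter q. The IDR difference in HRE minus no-HRE enrichment was -0.0727 within 100 bp, -0.0207 within 150 bp, -0.0262 for ACGTG alone and -0.16 to -0.11 with libraries left out. The DBD difference was -0.0787 on fragments (adjusted p = 0.06 by the exact test), -0.0835 with the stricter q, -0.0179 within 100 bp, -0.0432 within 150 bp, -0.112 for ACGTG alone and -0.126 to -0.0634 with libraries left out. The summit to HRE distance, which passed no test, differed by 0 bp between the DBDs with equal lists, by -0.83 bp for ACGTG alone and by -0.05 to 1.15 with libraries left out, and by 0 bp between the IDRs within 100 bp. The DBD difference in median fold was -0.0362 to 0.252 with libraries left out. The promoter minus distal difference between the IDRs was -0.39 to -0.31 with libraries left out, with adjusted p of 0.01 to 0.0300 by the exact permutation test. In the other alternatives the comparisons kept their direction and their side of the threshold. No named region that passed reversed in any alternative. Depth limits single values to 30 to 275 fragments at the median summit.

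The main fits and tests had no replicate block, though same-numbered libraries deviated together in part. On log2 fold their deviations correlated over 0.1 in 2, 5 and 2 of 10 pairs of lines for replicates 1, 2 and 3. All 15 libraries correlated best with their own number, both on log2 fold and on fragments over depth. On fragments over depth 10, 9 and 10 of 10 pairs were over 0.1 (medians 0.23, 0.20 and 0.16), and the lowest was 0.0999. With the replicate block, 61 core regions passed for the IDR (36 higher, 25 lower), where 44 and 29 of all 1720 regions did. For the DBD 45 passed (21 higher, 24 lower), against 24 and 38 of all 1720. For HIF-2α KIN 14 passed (10 higher, 4 lower), against 14 and 5 of all 1720. On fragments over depth with the replicate block, an alternative chosen after seeing the data, 625 passed for the IDR (354 higher, 271 lower). Of all 1720 regions 518 were higher and 384 lower. The DBD had 422 (247 and 175, against 339 and 274 of all 1720). HIF-2α KIN had 439 (208 and 231, against 344 and 307). The interaction had 9 (3 and 6), the same as over all 1720 regions. In the blocked permutation the smallest possible p is 0.03125, so that the differences of -0.35 (promoter minus distal, IDR), -0.13 (HRE minus no-HRE, IDR) and -0.10 (HRE minus no-HRE, DBD) had an exact adjusted p of 0.0625. The block changed no other call.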
